A study of Caenorhabditis elegans with 2 samples.

Results

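MicroRNA genes encode short RNAs that silence messenger RNAs, and the regions at and upstream of these genes were examined for the binding of SNAI-1 in the nematode Caenorhabditis elegans. The set was every gene of biotype miRNA in the Ensembl annotation of WBcel235, 261 of the 46890 genes annotated on the 6 nuclear chromosomes. Each gene was scored by the strongest region of the pooled list whose summit, the point of highest signal, lay from 1000 bp upstream of the gene's 5′ end to 200 bp past its 3′ end. The value used was the authors' deposited signal for the region. A region was found in this way for 117 microRNA genes, and the other 144 had none.

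SNAI-1, encoded by snai-1 (K02D7.2), is one of the Snail proteins of the worm, DNA-binding factors with zinc fingers. Chromatin immunoprecipitation followed by sequencing (ChIP-seq) had been done with an antibody against GFP on whole worms of strain OP698, which is mutant for unc-119 (tm4063) and carries the transgene wgIs698, a fusion of K02D7.2 to a C-terminal GFP-FLAG tag. The animals were late embryos of both sexes, taken 5 h after synchronization by egg bleaching. There was 1 group of 2 biological replicates and no untagged or second condition, so no difference between conditions could be tested. The transgene's promoter and expressing cells are not given in the labels, whole embryos mix all tissues, and region lists hold no expression values by which the labelled stage could be checked.

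A microRNA gene is transcribed into a long primary transcript, from which a hairpin precursor and then a mature strand are cut. The mature strand is loaded into an Argonaute protein and recognizes its targets mainly through the seed, bases 2 to 8. Genes with the same seed form a family and can act redundantly. In C. elegans the mir-35 and mir-51 families are known for their roles in embryonic development, and lin-4 and let-7 for the timing of larval development. The annotated gene is nearly always the precursor and not the primary transcript, so that a summit upstream of it need not lie at the start of transcription.

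The mature strands of the families on which the results turn are shown first, 5′ to 3′, with the seed in capitals. They were read from the RefSeq annotation and sequence of WBcel235. The mir-51 family shares the seed ACCCGUA, carried by the 5′ arm of the hairpin in mir-51, mir-52 and mir-53 and by the 3′ arm in mir-54, mir-55 and mir-56.
mir-51: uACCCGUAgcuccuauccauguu
mir-52: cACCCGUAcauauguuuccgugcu
mir-53: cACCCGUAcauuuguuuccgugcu
mir-54: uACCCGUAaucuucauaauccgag
mir-55: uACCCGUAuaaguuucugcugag
mir-56: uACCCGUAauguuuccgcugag

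The mir-35 family shares the seed CACCGGG on the 3′ arm. Its first gene and its only gene outside the main cluster are shown, together with mir-58.1, which had a score close to theirs, and let-7, for its known role.
mir-35: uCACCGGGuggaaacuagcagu
mir-42: uCACCGGGuuaacaucuacaga
mir-58.1: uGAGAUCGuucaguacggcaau
let-7: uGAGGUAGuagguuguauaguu

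The strongest region of the set lay just upstream of mir-51. The stretch from 50 bp before that summit to the end of the gene, chrIV:11026013-11026256 on ce11 and on the minus strand as the gene is, is shown 5′ to 3′ with the annotated precursor in capitals.
mir-51 upstream stretch: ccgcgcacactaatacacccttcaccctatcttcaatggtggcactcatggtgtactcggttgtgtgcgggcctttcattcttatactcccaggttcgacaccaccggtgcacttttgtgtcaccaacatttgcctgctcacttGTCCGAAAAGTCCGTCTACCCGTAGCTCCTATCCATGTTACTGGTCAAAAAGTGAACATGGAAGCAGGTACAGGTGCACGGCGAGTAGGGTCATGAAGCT

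At the regions of mir-52, mir-54, mir-35 and mir-58.1 the pooled summit fell in the precursor or at its edge. The bases from 50 bp before to 50 bp after the summit are given for mir-52 (chrIV:14034022-14034122, plus strand), mir-54 (chrX:13145047-13145147, minus strand), mir-35 (chrII:11537569-11537669, plus strand) and mir-58.1 (chrIV:3233216-3233316, plus strand), with precursor bases in capitals.
mir-52 summit: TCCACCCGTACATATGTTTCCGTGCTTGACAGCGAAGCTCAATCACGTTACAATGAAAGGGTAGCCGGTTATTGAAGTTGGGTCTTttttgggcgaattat
mir-54 summit: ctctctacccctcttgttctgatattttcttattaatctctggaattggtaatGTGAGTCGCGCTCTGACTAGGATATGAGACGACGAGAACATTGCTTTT
mir-35 summit: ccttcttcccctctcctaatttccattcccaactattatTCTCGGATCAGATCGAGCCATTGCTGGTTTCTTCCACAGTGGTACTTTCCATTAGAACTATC
mir-58.1 summit: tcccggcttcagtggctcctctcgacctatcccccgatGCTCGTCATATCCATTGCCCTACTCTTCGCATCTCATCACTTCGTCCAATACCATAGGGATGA

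The deposited lists set how the values can be read. Each replicate list and the pooled list held 30000 regions, most of them weak, and they are called candidates here. The pooled list was deposited as peaks and background together, and 285 of its regions had a −log10 q-value of at least 2. At mir-4929, which stood at the median rank of the scored microRNA genes, that value was 0.155. A candidate is therefore not by itself a bound site. The authors' list of regions that passed the irreproducible discovery rate (IDR) filter, which asks whether 2 rankings place a region alike, held 495 regions. These were the 495 strongest of the pooled list. An IDR region need not be strong in both replicates: the one at mir-354 ranked 14449 in replicate 1 and 233 in replicate 2. The signal has no stated scale and is comparable within 1 list only, so that ranks are compared between lists, with rank 1 the strongest. A replicate value is that of the best summit in the gene's window in that replicate's list, which need not be the summit of the pooled region. No read counts were given, so the depth behind each value is unknown and no interval could be set on it.

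Few microRNA genes carried a strong region, but those that did included some of the strongest in the genome. Of the 261 genes, 117 (44.8%) had a candidate summit, beside 40.9% of all annotated genes. An IDR summit lay in the window of 6 genes (2.30%), beside 2.09% of all annotated genes. Both shares were near this background. Of the 46890 genes in it, 15363 were Piwi-interacting RNA (piRNA) genes, of which 16.4% had a candidate and 0.111% an IDR summit. These genes lower both background shares, and they are part of each share of all annotated genes given below. The 6 genes were mir-51, mir-52, mir-86, mir-8211, mir-5549 and mir-354, and they shared 5 regions because mir-86 and mir-8211 had the same one.

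Because the window includes the gene itself, long genes have more room for a summit than hairpin genes. In a window of equal size for every gene, from 1000 bp upstream to 300 bp downstream of the 5′ end, 6 microRNA genes again had an IDR summit, beside 1.59% of all annotated genes. The same window held an IDR summit at 1.43% of protein-coding genes, 24.5% of transfer RNA (tRNA) genes, 16.2% of small nucleolar RNA (snoRNA) genes and 5.43% of small nuclear RNA (snRNA) genes, or 7 of 129. The share of microRNA genes, 2.30%, was thus far below those of tRNA and snoRNA genes and nearer to those of snRNA and protein-coding genes. The equal window was chosen after the data were seen.

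The picture differed just below the IDR threshold. Among the 990 strongest pooled regions, a number equal to 2 times the IDR list, 21 microRNA genes (8.05%) had a summit in the window, beside 3.45% of all annotated genes. That background again includes the piRNA genes, of which 0.195% had one. These 21 genes shared 11 regions, since 7 genes of the mir-35 cluster had 1 region and 4 genes of the mir-54 cluster had another. Counted over bases, the merged windows of all microRNA genes spanned 298 kb and held 124 candidate summits, or 416 per Mb beside 299 per Mb over the genome. The same windows held 6 IDR summits, or 20.1 per Mb beside 4.94 per Mb. With so few summits these densities are descriptions of single loci.

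The 117 scores ran from 33.2 to 423, with a median of 54.4 and an interquartile range of 43.7 to 76.3. The median over all pooled regions was 45.0, and over the best regions of all scored genes 50.2. Of the 117 genes, 86 scored above the median of all pooled regions and 31 at or below it. The median rank of the scored microRNA genes was 8309 of 30000, beside 10935 for all scored genes. Between the third and the fourth region of the set the score dropped from 172 to 115.3, and the weakest IDR region of the genome stood at 114.70.

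**Figure D1:**
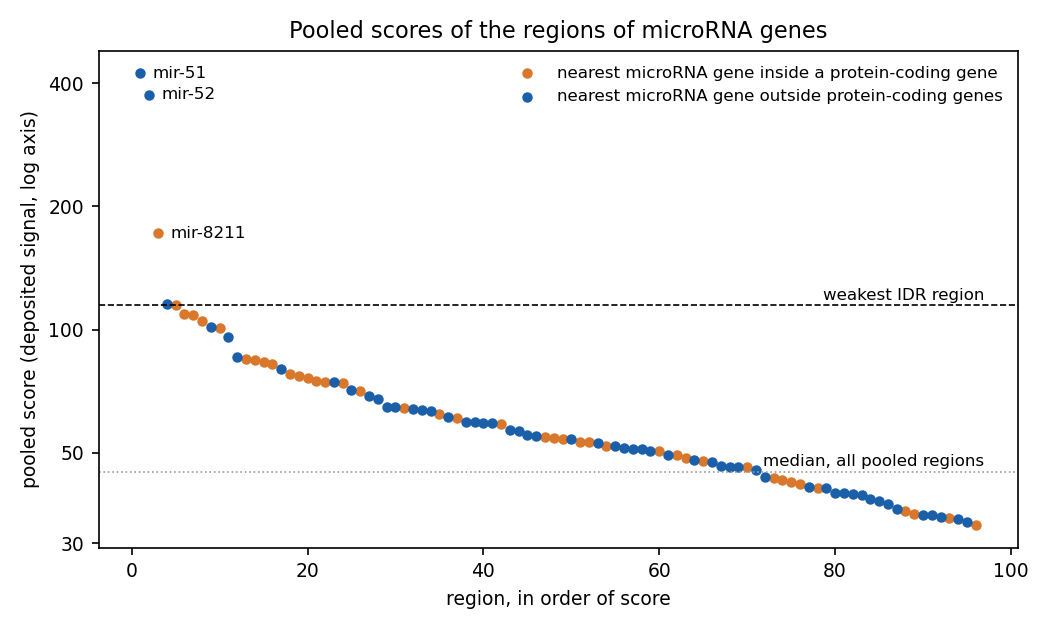
Pooled score (deposited signal, log axis) of the 96 distinct regions assigned to the 117 scored microRNA genes, in order of score; each point is 1 region, coloured by whether the nearest microRNA gene lies inside a protein-coding gene. The regions of mir-51 (423) and mir-52 (374) stand far above the rest, 5 regions reach the weakest IDR region (dashed line), and the median of all pooled regions is 45.0 (dotted line).

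The mir-51 family held the 2 strongest regions and was the only seed family of the set in which every gene was among the 990 strongest. The region of mir-51, chrIV:11026136-11026320, had a signal of 242 in replicate 1, where it ranked 13, and of 188 in replicate 2, where it ranked 21. Its pooled signal was 423, at rank 14. Both replicates thus placed it among their strongest regions. The pooled summit lay 94 bp upstream of the precursor, the replicate 1 summit at the same base and the replicate 2 summit 50 bp upstream. The gene lies outside protein-coding genes, and the unclassified non-coding RNA gene F36H1.17 lay within 100 bp of the summit.

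The region of mir-52, chrIV:14033849-14034202, ranked 12 in replicate 1 with a signal of 243 and 58 in replicate 2 with a signal of 140. Its pooled signal was 374, at rank 26. Unlike at mir-51, the summit lay inside the precursor, 64 bp after its 5′ end in the pooled list, 27 bp after it in replicate 1 and 7 bp after it in replicate 2. Unclassified non-coding RNA genes, 2 in number, lay within 100 bp of it. mir-52 is not a neighbour of mir-51, whose locus lies elsewhere on chromosome IV.

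The remaining genes of the family stood below the IDR threshold. mir-53 lies upstream of mir-51 on the same strand, with 1480 bp between the precursors, and had a region of its own. That region ranked 3266 in replicate 1 with a signal of 41.9, 567 in replicate 2 with 56.1, and 890 in the pooled list with 96.1. Its pooled summit lay 24 bp past the end of the precursor. The replicates therefore differed more here than at mir-51 and mir-52.

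On chromosome X, mir-54, mir-55 and mir-56 lie close together on 1 strand inside the protein-coding gene F09A5.3, which runs the opposite way. They shared 1 region, chrX:13144869-13145324, with a signal of 73.9 at rank 371 in replicate 1 and of 49.7 at rank 930 in replicate 2. Its pooled signal was 108, at rank 595, and its summit lay 3 bp upstream of mir-54, the first gene of the cluster. F09A5.15, which Ensembl names mir-55b and which is annotated on the other strand over mir-55, was scored by the same pooled region. In replicate 2 its best summit was another, at rank 625. That one lay near a second pooled region of the locus, whose summit was 271 bp past the end of mir-56, at pooled rank 751.

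**Figure D2:**
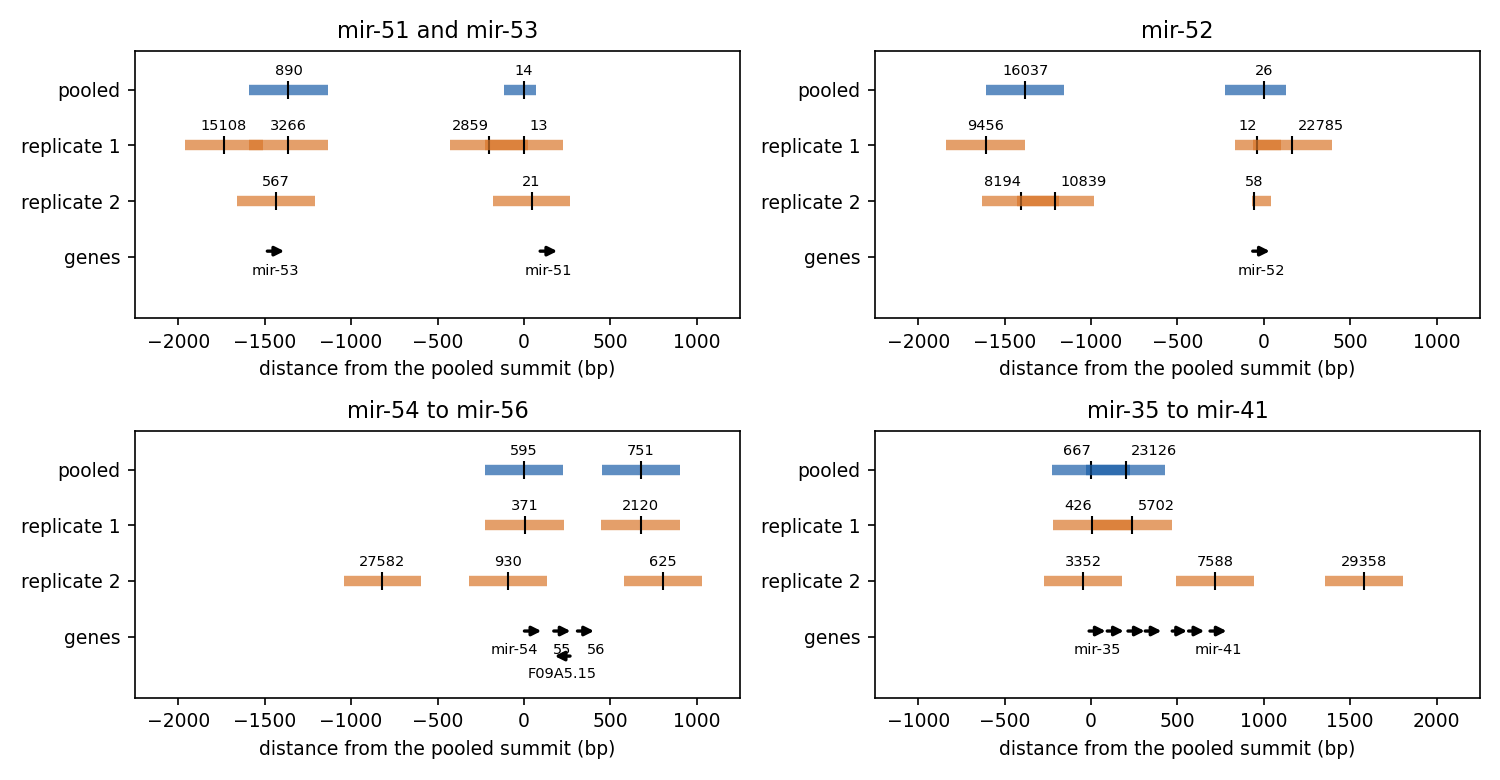
Regions of the pooled list (blue) and of each replicate list (orange) around 4 loci, plotted by distance from the pooled summit in bp on the strand of the microRNA gene; bars are regions, ticks are summits, the number above a tick is the rank in that list, and arrows are annotated precursors. At mir-51 and mir-52 all 3 lists place a region ranked 58 or better at the gene. The regions at the first gene of the clusters rank 371 and 930 in replicates 1 and 2 at mir-54, and 426 and 3352 at mir-35. Past mir-56 lie regions ranked 2120 in replicate 1 and 625 in replicate 2, so that in replicate 2 the stronger region is not the one at mir-54.

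The mir-35 family stood together at a lower level. mir-35 to mir-41 lie in 1 cluster on chromosome II, inside the protein-coding gene Y62F5A.9 on the opposite strand, and their windows held the same best region, chrII:11537391-11537846. Its signal was 70.3 in replicate 1, at rank 426, and 36.7 in replicate 2, at rank 3352. The pooled signal was 105, at rank 667. The replicates were far apart here, and replicate 1 alone placed the region among its 495 strongest. The summit lay 11 bp inside the precursor of mir-35, the first gene, and the non-coding RNA gene Y62F5A.16 was within 100 bp of it. The 7 genes are 1 observation, because they were scored by 1 region. mir-42, the 8th gene of the family and outside this cluster, had a pooled signal of 43.7 at rank 16258, had its best summit in replicate 1 at another place in the window, at rank 9165, and had no candidate in replicate 2.

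The other families of note had pooled scores below that of the mir-35 cluster, though mir-58.1 was close to it and ranked above it in each replicate. mir-58.1 (mir-58a in Ensembl), which belongs to the family related to bantam of Drosophila, lies in Y67D8A.2 on its strand and had a signal of 87.1 at rank 244 in replicate 1 and 50.8 at rank 840 in replicate 2. The summit lay 12 bp inside the precursor in replicate 1, but in replicate 2 it lay 221 bp after the 5′ end, past the gene. The pooled signal was 101.1, at rank 745, with the summit 12 bp inside the precursor, and the non-coding RNA gene Y67D8A.6 was within 100 bp. The seed of its mature strand, GAGAUCG, was carried by no other gene of the set. Its relatives mir-80, mir-81 and mir-58.2, which carry the seed GAGAUCA, had no pooled candidate, and mir-82 with that seed had a pooled signal of 58.6 at rank 6377.

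The genes of larval timing were not at strong regions. lin-4, which represses lin-14 and lin-28, had a signal of 46.3 in replicate 1, at rank 2128, and 27.2 in replicate 2, at rank 10445, with a pooled signal of 83.4 at rank 1559. The pooled summit lay 273 bp upstream. Replicate 2 had its summit there too, at −274 bp, while the replicate 1 value came from another summit, at −541 bp, outside the pooled region. The gene lies in the host F59G1.4 on its strand. mir-237, which has the seed of lin-4, had a pooled signal of 33.9 at rank 28517. For let-7, which represses lin-41, the pooled signal was 67.8 at rank 3644, with rank 3590 in replicate 1 and rank 12270 in replicate 2. The annotated let-7 gene is 1732 bp long, and the summit lay inside it, 325 bp upstream of the 5′ mature strand. Of the other genes with its seed, mir-241 had 85.5 at rank 1426 and mir-84 had 51.1 at rank 10321, while mir-48 and mir-795 had no candidate in any list.

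**Figure D3:**
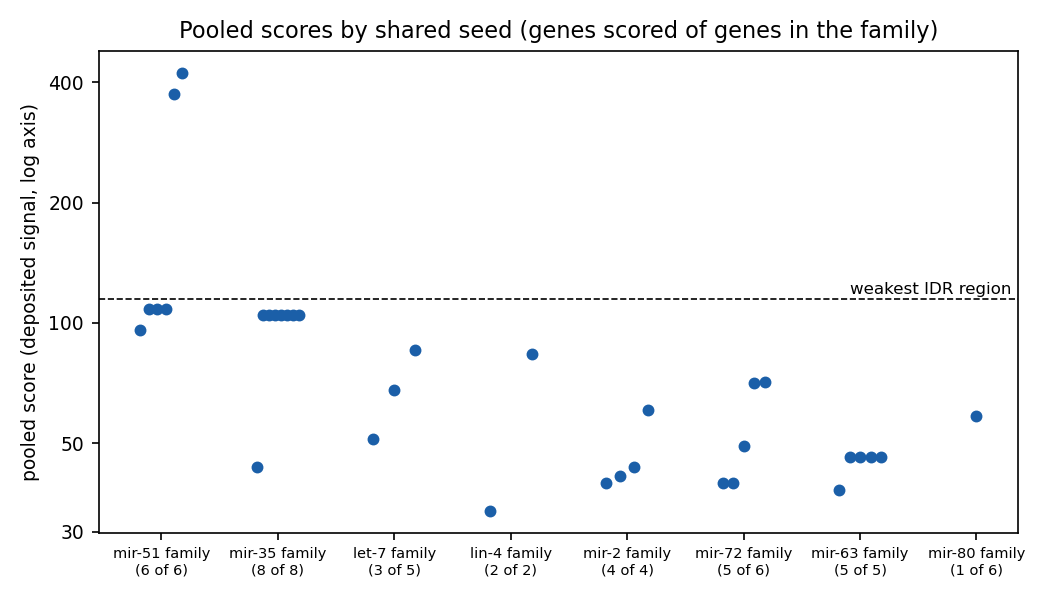
Pooled score (deposited signal, log axis) of the genes of 8 seed families, each point 1 gene, with the number of genes scored of the number carrying the seed below each name; genes of 1 cluster can share a region and then have equal scores. The mir-51 family runs from 96.1 to 423, 7 genes of the mir-35 family stand at 105, and each other family lies below the weakest IDR region (dashed line).

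Over all seeds, 260 of the 261 genes had at least 1 annotated mature strand, 458 in all, with 374 different seeds. A seed was shared by 2 or more genes in 46 cases, which covered 109 genes. Shared seeds with a gene at an IDR summit numbered 2, ACCCGUA of mir-51 and mir-52 and AAGUGAA of mir-86 and mir-785. Of the 109 genes with a shared seed 57 were scored, with a median of 58.6, and of the 152 others 60 were scored, with a median of 53.5. Of all annotated genes 40.9% were scored. These medians are over genes, and genes of 1 cluster can share a region. Among the 990 strongest, 14 genes with a shared seed rested on 6 regions and 7 of the others on 7 regions.

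The 3 IDR regions outside the mir-51 family lay at genes whose neighbourhood held other features. mir-86 and mir-8211 lie in the protein-coding gene Y56A3A.7 on its strand, in the right arm of chromosome III. Their shared region, chrIII:11936627-11937082, had a pooled signal of 172 at rank 205 and was between the precursors, 121 bp upstream of mir-86 and 61 bp past the end of mir-8211. In replicate 2 its signal was 110 at rank 112 for both genes. In replicate 1 the best summit for mir-86 ranked 439 with a signal of 69.6, and that for mir-8211 ranked 381 with 73.3 and lay at −795 bp from its 5′ end, where values below 0 are upstream. A second IDR summit, at rank 334 with a pooled signal of 134, was also in the window of mir-8211.

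mir-5549 had a pooled signal of 115.3 at rank 486, with a summit 79 bp upstream. It ranked 1247 in replicate 1, with a signal of 51.9, and 377 in replicate 2, with 64.2. The same summit was in the promoter windows, from 1000 bp upstream to 200 bp downstream of a transcript start, of eef-1A.1, which encodes a translation elongation factor, and of rfc-4, which encodes a subunit of the clamp loader of DNA replication. mir-354 overlaps an exon of rps-20, which encodes a protein of the small ribosomal subunit. Its pooled signal was 115.1 at rank 490, with ranks of 14449 in replicate 1 and 233 in replicate 2, so that the region was strong in replicate 2 alone. The summit lay 852 bp upstream of the hairpin and in the promoter windows of rps-20 and ekl-4. At these 2 genes the region cannot be told apart from one that belongs to the protein-coding promoter.

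mir-5549 and mir-354 were the members just inside the IDR list, and mir-4930 and the mir-54 cluster those just outside. mir-4930 had a pooled signal of 109 at rank 587, with rank 7462 in replicate 1 and rank 258 in replicate 2. Its host is Y38F2AR.10 on the opposite strand. The bases from 50 bp before to 50 bp after its summit, chrIV:2398401-2398501, were made of near copies of a short unit, and they are shown for that reason, on the plus strand.
mir-4930 summit: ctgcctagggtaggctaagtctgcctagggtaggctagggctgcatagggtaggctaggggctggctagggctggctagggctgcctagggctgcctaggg
mir-4936, at a pooled signal of 101.4 and rank 739, had its summit 63 bp inside the hairpin gene and in the promoter window of nduf-9, which encodes a subunit of mitochondrial complex I. It ranked 681 in replicate 1 and 4025 in replicate 2.

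In the window used for scoring, microRNA genes with known tissue roles had candidates of middle or low rank, or none. mir-124, found in sensory neurons and within trpa-1, had the highest of them, a pooled signal of 77.8 at rank 2079, with rank 7125 in replicate 1 and 771 in replicate 2. mir-2 had 60.7 at rank 5594 and no candidate in replicate 1. The glial mir-228 had 48.1 at rank 12443 and no candidate in replicate 2. mir-34, which acts in stress responses, had 46.4 at rank 13740. With a window from 2000 bp upstream its score was 109.9, above that of mir-4930 at rank 587 and so among the 990 strongest regions. mir-71, which acts in lifespan, had 43.3 at rank 16606 and no candidate in replicate 2, and 60.8 with that wider window. The other scored genes named in this paragraph kept their scores in it. The muscle gene mir-1 had 35.2 at rank 26477 and no candidate in replicate 2. mir-61, which acts in vulval cell fate, shared a region with its neighbour mir-250, at 39.7 and rank 20568. lsy-6, which sets the left and right difference of a pair of taste neurons, and mir-57, which acts in posterior patterning, had no candidate in any list.

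The replicate lists differed in which microRNA genes they ranked high. In replicate 1, 16 genes (6.13%) had a summit among the 495 strongest regions of that list, beside 2.03% of all annotated genes. In replicate 2 there were 7 genes (2.68%), beside 2.03% of all annotated genes. The 16 genes of replicate 1 rested on 7 regions and the 7 genes of replicate 2 on 6 regions, so the replicates were closer in regions than in genes. The genes mir-51, mir-52, mir-86 and mir-8211 were in both lists. Replicate 1 added the mir-35 and mir-54 clusters, F09A5.15 and mir-58.1, and replicate 2 added mir-5549, mir-354 and mir-4930.

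Of the 117 scored genes, 78 had a candidate in both replicate lists, 13 had none in replicate 1 and 26 had none in replicate 2. Over the 64 distinct pooled regions with a value in both lists the Spearman correlation of the replicate ranks was 0.39, as a description of regions from the same libraries. The best summits of both replicates were within 100 bp of each other at 24 of the 64. Below the strongest regions the rank of a single microRNA gene differed widely between the replicates.

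**Figure D4:**
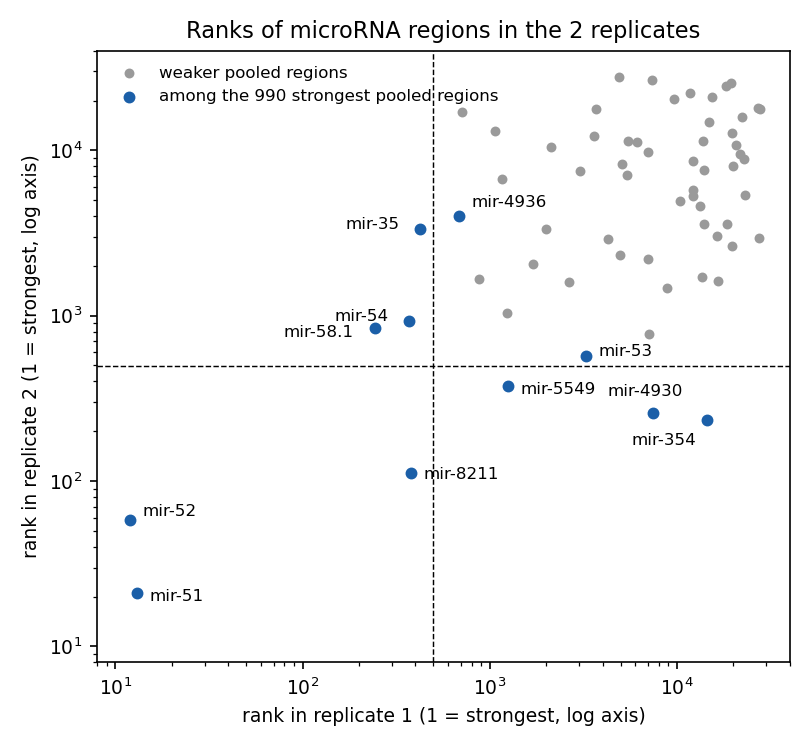
Rank of the best summit in the microRNA gene's window in replicate 1 (horizontal) and replicate 2 (vertical), both on log axes with 1 the strongest, for the 64 pooled regions with a value in both lists, each named for its nearest gene. Dashed lines mark rank 495; the points of mir-51, mir-52 and mir-8211 lie within it in both replicates, and the weaker regions (grey) scatter widely.

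Strong regions lay closer to the hairpins than weak ones. The median position of the 117 best summits was −212 bp from the 5′ end, with an interquartile range of −470 to 11. Of these summits 84 (71.8%) were upstream, where 77.1% of the window lies, 17 (14.5%) were inside the gene, where 7.47% of the window lies, and 16 (13.7%) were past its end, where 15.4% lies. Among the 11 regions in the 990 strongest, 9 (81.8%) had the summit within 100 bp of a microRNA gene, and the median distance was 24 bp. Among the 85 weaker regions 30 (35.3%) did, and the median distance was 258 bp. The 2 exceptions among the 11 were mir-354, at 852 bp, and mir-4930.

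Genes less than 1000 bp apart on 1 strand were merged into 227 loci for a profile of summits around the 5′ end. Candidates were densest in the 500 bp before the 5′ end, with 59 summits or 0.520 per kb per locus, and in the 500 bp after it, with 0.423. In the bin next further upstream there were 0.282. At protein-coding genes the bin before the 5′ end held 0.401 per kb per gene. The 990 strongest regions were placed otherwise. At the microRNA loci they gave 10 summits, or 0.0881 per kb per locus, in the 500 bp after the 5′ end and 5, or 0.0441, in the 500 bp before it. At protein-coding genes they gave 0.00731 per kb per gene after the start and 0.0346 before it. A summit can count at more than 1 locus. F09A5.15 and the mir-54 cluster, on opposite strands, are 2 loci, and their shared summit lies at −3 bp for mir-54 and at 267 bp for F09A5.15.

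**Figure D5:**
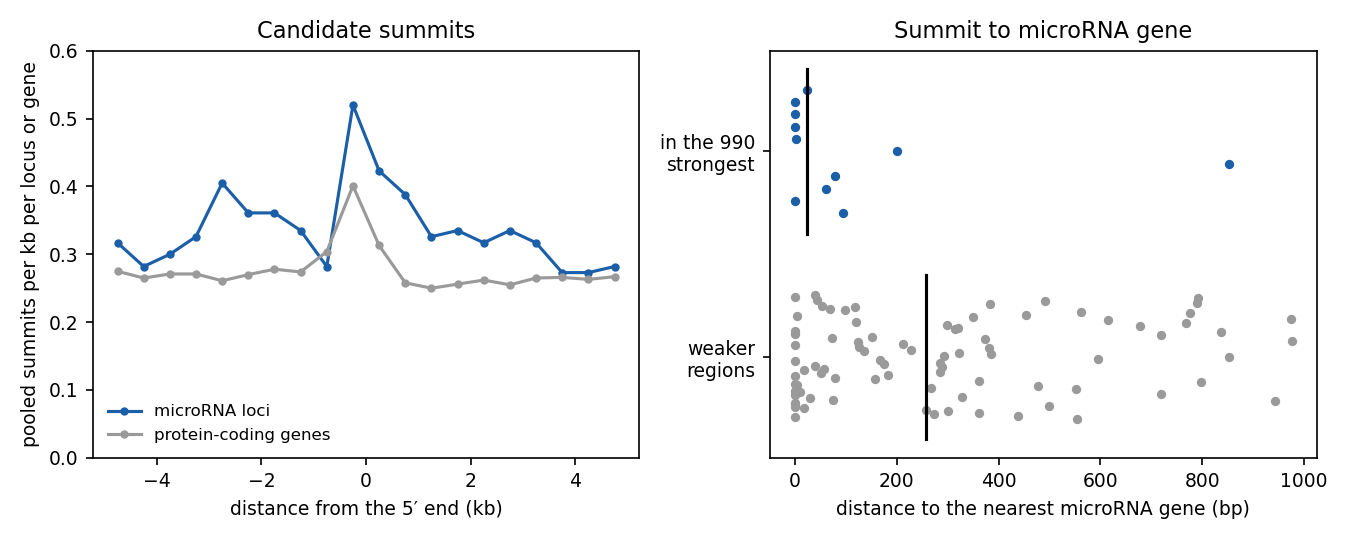
Left, pooled candidate summits per kb in bins of 500 bp around the 5′ end of 227 microRNA loci (blue) and of protein-coding genes (grey); right, distance in bp from the summit to the nearest microRNA gene for the regions in the 990 strongest and for the weaker ones, each point 1 region, with the median as a black line. The bin before the 5′ end is the highest at both kinds of gene (0.520 and 0.401), and the medians at right are 24 and 258 bp.

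Of the 261 genes 106 lay inside a protein-coding gene and 155 did not. Among those inside, 54 were scored, from 41 regions, with a median over genes of 67.5, and 3 had an IDR summit. Among those outside, 63 were scored, from 55 regions, with a median over genes of 51.2, and 3 had an IDR summit. Of the genes inside, 16 (15.1%) were among the 990 strongest, from 6 regions, and of those outside 5 (3.23%), from 5 regions. The counts of regions were thus close where the counts of genes were not, since the mir-35 and mir-54 clusters, both inside hosts, share a region each. Hosts on the same strand held 74 genes, with all 3 of the IDR genes inside a host, and 5 of the 74 were among the 990 strongest, in 4 regions. Hosts on the opposite strand held 32 genes, none with an IDR summit, of which 11 were among the 990 strongest in 3 regions. The region shared by F09A5.15 and the mir-54 cluster is in both counts.

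Other annotated genes lay near some of the summits. A tRNA, snoRNA or snRNA gene lay within 100 bp of the summit at 1 of the 96 regions (1.04%), a tRNA gene at the region of mir-8207, beside 1.55% of all pooled regions. A summit in the promoter window of a protein-coding gene was found at 25 of the 96 (26.0%), beside 30.8% of all pooled regions. An unclassified non-coding RNA gene lay within 100 bp of the summit at 21 of the 96 (21.9%), beside 5.51%. Among the 5 IDR regions, 2 lay in a promoter window, 2 others near an unclassified non-coding RNA gene and none near a tRNA, snoRNA or snRNA gene. Whether the signal at those belongs to the microRNA gene or to its neighbour cannot be told apart.

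Sequence words were counted within 50 bp of the summit on both strands. CAGGTG, the E-box bound by Snail factors, was found at 4 of the 96 microRNA regions (4.17%), beside 2.65% of all pooled regions. It was at none of the 5 microRNA IDR regions, beside 1.62% of all IDR regions, so its absence from 5 regions says little. CACTTG was found at 2 (2.08%), beside 3.98% of all pooled regions and 7.68% of all IDR regions. Any CANNTG, which includes both words, was found at 23 (24.0%), beside 29.2% and 31.1%. GTTCGA, the core of the B box of tRNA genes, was found at 9 (9.38%), beside 3.57% of all pooled regions and 18.2% of all IDR regions.

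Among the 5 IDR regions the word GTTCGA was found only at mir-51, in the stretch shown above, 43 bp after the summit and ending 45 bp before the precursor. The longer form GTTCGANNC also matched there once within 100 bp to each side of the summit, as it did at 2.27% of all pooled regions and 22.8% of all IDR regions. No tRNA gene is annotated within 100 bp of that summit. The mean GC content was 41.4% at the microRNA regions, with an SD of 10.4 over the 96 regions, and 38.5% over all pooled regions.

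The genes that make microRNAs or act with them were examined at their transcript starts, in the same window of 1000 bp upstream to 200 bp downstream. The list also held the target genes lin-14, lin-28, lin-41 and hbl-1, as well as egl-1. Of 28 names listed 26 matched the annotation, and imb-4 and ntl-1 did not. A candidate was found at 20 of the 26, beside 38.4% of all protein-coding genes, and an IDR summit at 1, beside 1.55% of all protein-coding genes. That gene was alg-2, which encodes an Argonaute of the microRNA pathway. It had a pooled signal of 129 at rank 362, with ranks of 443 in replicate 1 and 422 in replicate 2, and its summit lay at −642 bp from a transcript start.

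The next were ccf-1, which encodes a deadenylase of the CCR4-NOT complex, at a pooled signal of 114 and rank 510, and alg-5, which encodes another Argonaute, at 114 and rank 513. The replicate ranks were 277 and 1706 for ccf-1 and 384 and 1835 for alg-5. vig-1, which encodes a protein of the silencing complex, followed at 91.5 and rank 1081, and cgh-1, which encodes an RNA helicase of the germline and of P bodies, at 82.5 and rank 1630. The Argonaute gene alg-1 stood at 51.7 and rank 9958, drsh-1, which encodes the nuclear nuclease Drosha, at 36.3 and rank 24873, and pash-1, which encodes its partner, at 52.9 and rank 9178. dcr-1, which encodes Dicer, was among the 6 genes without a candidate, as were the target genes lin-14 and hbl-1. The median of the 20 scored genes was 54.1, beside 49.2 over 7662 scored protein-coding genes.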

How the data were processed

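The data were region lists from ChIP-seq of SNAI-1::GFP in late embryos, from 2 biological replicates of 1 group, numbered as in the labels. Per the deposited manifests, a replicate list was made from the alignment of that replicate beside a control, the pooled list from both alignments, and the IDR list from the other lists. Aligner, peak caller, IDR threshold and versions were not given in the sources used here. Control reads were not analysed here. The signal of each region (7th column) and its −log10 q-value (9th column) were used as deposited by the authors. The summit was the region's start plus the deposited offset. No filter on the q-value was applied. All coordinates are ce11 and count from 1.

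Genes came from Ensembl release 115 for WBcel235, which has the coordinates of ce11. Their symbols, mature strands and bases came from RefSeq for the same assembly, in which all 261 genes were matched. Where RefSeq and Ensembl names differ, the RefSeq name is used. Ranks were taken within each list. A microRNA gene was called inside a protein-coding gene when its whole length lay in it, on either strand. Analyses were run in python 3.11.15 with pandas 2.3.3 and numpy 2.4.6, and scoring was tested on simulated data. Counts are given beside the same count over all annotated genes and no test was made, since there was 1 group and members share regions. The microRNA genes, gene lists and words were chosen with earlier results of these data known. Named genes were those with an IDR summit, the 20 highest scores, the members of 5 families, 13 further microRNA genes taken in every case, those beside the IDR threshold, and the pathway genes with an IDR summit or the 4 highest scores; alg-1, drsh-1, pash-1, dcr-1, lin-14 and hbl-1 were added for their roles, and mir-8207 as a single case, after their values were seen. Alternatives were other windows, other thresholds, each replicate alone, shared regions counted 1 time, and summits near other genes left out.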

Additional observations from a re-analysis of the deposited data

How the results depend on the processing

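The 6 microRNA genes with an IDR summit became 4 to 8 under other windows. The 4 came from 100 bp to each side, beside 1.27% of all genes. The 8 came from the mirrored window, 200 bp upstream to 1000 bp downstream, beside 1.9% of all genes. When replicate 1 or replicate 2 was left out there were 7 and 16, each beside 2.03%. They became 21 with the 990 strongest regions, and 4 without summits at protein-coding transcript starts. Leaving out summits near tRNA, snoRNA or snRNA genes left 6, while the share over all genes fell to 1.02%. The 117 genes with a candidate summit ranged from 112 to 150 under the mirrored, the 2000 bp, the overlap and the equal windows, and were 96 within 500 bp, 116 and 124 without replicate 1 or 2, 46 within 100 bp of the gene, and 4 at a −log10 q of at least 2, beside 1.34% of all genes. The median score ranged from 54.2 to 59.0 over 4 settings, and the median rank was 7064 and 11012 without replicate 1 or 2. The median position of −212 bp was −86.5 over genes with an IDR summit and −94 over those in the 990 strongest, and −200.5 and −227 without replicate 1 or 2. The 3 IDR genes inside protein-coding genes became 16 with the 990 strongest and 4 and 14 without replicate 1 or 2, and the 3 outside became 5, and 3 and 2. Shared seeds with an IDR summit numbered 2 and 4 without replicate 1 or 2. Pathway genes with an IDR summit numbered 3 from 2000 bp upstream to 500 bp downstream, and 1 and 3 without replicate 1 or 2. The share of all protein-coding genes was not counted under these settings. The share with CACTTG relative to all pooled regions was 0.523 within 50 bp of the summit and 0.830 within 100 bp. Causes were not tested.

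No paired analysis was possible because there was 1 group. Only 2 replicates, an unknown depth and an unstated signal scale stood behind the scores, which carry no error. Of 36 named and scored genes, 18 had no summit left within 100 bp.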

Other observations

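Genes with a low number in their symbol, differed in their share of scored genes from those with a high number. Among the 56 genes numbered below 100, 42 (75.0%) had a candidate summit, from 29 regions, beside 40.9% of all annotated genes. Of these 56, 15 were among the 990 strongest, from 7 regions, beside 3.45% of all annotated genes. Among the 76 genes numbered from 100 to below 1000 the share with a candidate was 38.2%, 29 genes from 26 regions. Among the 122 numbered 1000 and above it was 35.2%, 43 genes from 42 regions. These 2 classes had 1 and 4 genes among the 990 strongest. Shared regions thus weigh most in the class below 100. The median scores of the scored genes were 59.7, 49.3 and 55.0. This split was chosen after the data were seen.

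By chromosome, a candidate was found at 18 of 27 microRNA genes on III (66.7%, 13 distinct regions), beside 65.8% of all annotated genes there, and at 26 of 49 on II (53.1%, 18 regions), beside 53.5%. The values were 15 of 33 on I (45.5%, 15 regions), beside 63.3%, and 10 of 28 on V (35.7%, 9 regions), beside 42.3%. On IV they were 18 of 50 (36.0%, 18 regions), beside 24.7%. That share of IV rests on 19704 annotated genes, against 3859 to 7870 on each other chromosome. Gene classes such as piRNA genes were not separated by chromosome, so the shares on IV cannot be compared like those elsewhere. Chromosome X held the most microRNA genes, 74, of which 30 were scored (40.5%, 23 regions), beside 49.9% of all genes there. No microRNA gene on X, II or V had an IDR summit, and the share of all genes with one was not counted by chromosome. Most scored genes, 84 of 117, had a single summit in the window, 30 had 2 and 3 had 3.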
